A study of Mus musculus with 5 samples.

Results

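The 2 Mettl5-KO clones of mouse embryonic stem cells (mESCs) were compared with WT mESCs gene by gene, in read depth and in m6A level. The members were genes with the same direction in both clones. Of 990 genes tested for depth, 752 were on the same side of WT in both clones, and of 918 genes tested for m6A level, 638 were. Across all 5 libraries of the study, which also include mESCs treated with DMSO or with the METTL3 inhibitor STM2457, 2633 genes were covered by at least 10 positions. The groups used here were WT, untreated, with 1 library, and Mettl5KO, untreated, with 1 library each from clone 1 (c1) and clone 2 (c2), all from 1 sequencing batch by their labels. The clones derive from WT mESCs by the series' design and were made in an earlier study, and each library is 1 clone, so a feature of the clone cannot be told apart from the loss of Mettl5. By the study's methods, cells were grown in serum with LIF, with 2i for maintenance. RNA was extracted from whole cultures, so fewer cells with a transcript and less transcript per cell cannot be told apart.

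METTL5 is the methyltransferase that places m6A on 18S ribosomal RNA (rRNA), in a complex with its activator TRMT112. Most m6A of mRNA is placed by METTL3 with METTL14, at DRACH motifs (D is A, G or U, R is A or G and H is A, C or U), often near stop codons and in 3′ UTRs. In direct RNA sequencing, native RNA is read from its poly(A) tail through a nanopore, and each adenosine of a read is called as m6A or not. Depth therefore counts the reads that cover a position, and favours 3′ ends and short, abundant transcripts. The comparison asks whether mRNAs of the clones differ from WT in abundance or in m6A.

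Depth of a gene was the median number of valid calls over its covered adenosines, per 1000000 valid calls on exons of nuclear protein-coding genes (the mRNA total), and is called scaled depth. The mRNA total counts calls and not reads, so scaled depth also depends on read length. By the study's methods, the median read length differed between the libraries and was longest in clone 1. The part of read length in the depth differences was not tested. The m6A level was the pooled share of m6A calls among valid calls of the gene. Positions had at least 25 valid calls in each of the 3 libraries, and the mRNA total was 16504849 calls in WT and 15164585 and 16690554 in clones 1 and 2. The genes tested had at least 10 such positions, with a median of 135, and a median depth of 48 reads in WT and 40.3 and 45 in clones 1 and 2. Calls on the 18S copy, which was left out, numbered 166 per 1000 mRNA calls in WT and 5.24 and 5.02 in the clones, so the WT library stands apart in rRNA content. It is the only WT library, and no result can be given without it. No position of Mettl5 or of Trmt112 was covered, so the knockout could not be checked by depth of the targeted gene. Of 10 stem cell markers, 8 were covered, among them Pou5f1, Sox2 and Nanog. Of 10 primitive endoderm markers only Sparc was covered, and of 6 trophoblast, 6 two-cell-like and 8 fibroblast defining markers 0 were covered. Longer lists of these types held Krt18 and Fn1, given below.

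In depth, 343 genes (34.6% of those tested) were higher in both clones and 409 (41.3%) were lower in both. The median difference of all genes was -0.05 in clone 1 and -0.02 in clone 2 on the log2 scale, with the middle 50% of genes from -0.31 to 0.22 and from -0.36 to 0.28. At least 1.5-fold higher in both clones were 27 genes (2.73%), and at least 1.5-fold lower were 55 (5.56%). The edgeR quasi-likelihood test, with Benjamini-Hochberg adjustment over all genes, called 0 genes higher (0.0%) and 1 gene lower (0.101%), Lars2. Before adjustment, 25 genes higher and 56 genes lower had a p below 0.05 (2.53% and 5.66%). The lowest adjusted p of a gene not called was 0.511. With failed calls counted as depth, 2 genes were called higher, Sfn and Mtch1, and 8 lower, Lars2, Mt1, Zfp42, Ndufb7, Lsm8, Gab1, Trh and Tsr1. The lone WT library was assumed to vary as the clones do, with a biological coefficient of variation of 0.166. Both clones are set against the same WT library, so the counts of genes on 1 side describe these libraries. Just inside the 1.5-fold limit were Ctnna1, with a smaller log2 difference of 0.59, and Emc6, with -0.59. Just outside were Hnrnpa0 and Sf3a1, at 0.58 and -0.58.

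**Figure D1:**
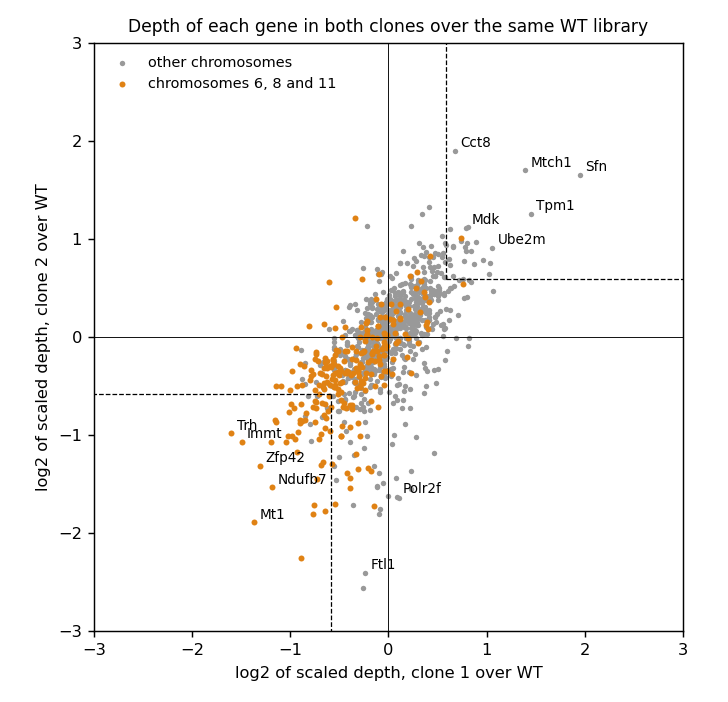
Each point is 1 gene, with the log2 of its scaled depth in clone 1 over WT on the x axis and in clone 2 over WT on the y axis, and genes on chromosomes 6, 8 and 11 in orange. Dashed lines mark 1.5-fold in both clones, 46 of the 55 genes in the lower left corner are orange, and Lars2, at -5.72 and -5.35, is outside the axes.

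The genes with lower depth lay mainly on 3 chromosomes. On chromosome 6 the median log2 difference of 63 genes was -0.33 in clone 1 and -0.27 in clone 2, on chromosome 8 that of 65 genes was -0.44 and -0.35, and on chromosome 11 that of 121 genes was -0.48 and -0.39. On each other chromosome the median lay between -0.04 and 0.18 in clone 1 and between -0.13 and 0.28 in clone 2. Both clones were below WT for 50 of the 63 genes on chromosome 6, 53 of the 65 on chromosome 8 and 88 of the 121 on chromosome 11. In sum, 76.7% of the 249 genes on these chromosomes were lower in both clones, against 29.4% of the 741 genes on the others. Of the 55 genes at least 1.5-fold lower, 46 lay on chromosomes 6, 8 and 11 and 9 elsewhere. Of the 27 genes at least 1.5-fold higher, 1 lay on these chromosomes, Ddx5 on chromosome 11.

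**Figure D2:**
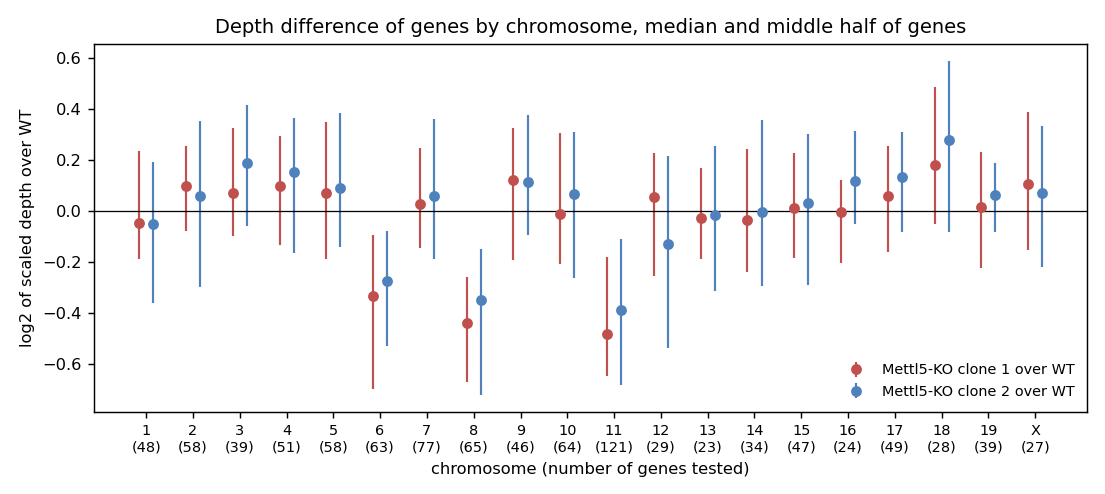
Points are the median log2 of scaled depth over WT of the genes of each chromosome, with clone 1 in red and clone 2 in blue, lines span the middle 50% of genes, and the number of genes is in parentheses. The medians of chromosomes 6, 8 and 11 lie between -0.27 and -0.48 in both clones, and every other median is above -0.13.

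The difference was not limited to a region of these chromosomes. When the genes of each were split by position into 3 equal parts, all 9 parts had medians below 0 in both clones. In clone 1 they ran from -0.29 in the last part of chromosome 6 to -0.64 in the middle part of chromosome 8. In clone 2 they ran from -0.23 in the middle part of chromosome 6 to -0.50 in the middle part of chromosome 11. The share of all mRNA calls that fell on chromosome 11 was 14.1% in WT and 10.7% and 10.5% in clones 1 and 2. For chromosome 6 it was 6.96%, 5.70% and 5.81%, and for chromosome 8 it was 4.40%, 3.32% and 3.48%. Set against each other, clone 1 and clone 2 had a median log2 difference of -0.06 on chromosome 6, -0.05 on chromosome 8 and -0.02 on chromosome 11, nearer to 0 than either clone was to WT. The 3 chromosomes were picked after the values were seen, so no test is given, and the copy number of chromosomes in these lines was not tested. Cultured mESC lines are known to gain whole chromosomes.

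The choice of positions touched these values. A gene with few WT reads could be included only if both clones also reached 25 calls. Among the 269 genes with 25 to 35 WT reads the median difference was 0.17 and 0.21, and in 3 groups with more WT reads (35.5 to 48, 49 to 73 and 74 or more) it lay between -0.19 and -0.11 in both clones. With genes of 50 or more WT reads, the medians of chromosomes 6, 8 and 11 together were -0.52 and -0.49 over 153 genes, and those of the other chromosomes -0.05 and -0.02 over 313 genes. With genes of a mean of 50 or more reads over the 3 libraries, they were -0.44 and -0.39 over 107 genes and 0.06 and 0.10 over 303. The DMSO culture was of another line and batch, E14 mESCs that are labelled WT and by the study's methods carry a 2C and a Zscan4 fluorescent reporter, a Dox-inducible APOBEC1-YTH transgene and a homozygous FKBP12 knock-in at the C-terminus of Mettl3, the last 2 not induced. In it the median log2 depth difference over shared positions, relative to that of all shared genes, was 0.23 on chromosome 6, 0.22 on chromosome 8 and -0.43 on chromosome 11 against the same WT library. Chromosomes 12, 13 and 16 were lower still, at -0.48, -0.68 and -0.72, and chromosome 10 was highest, at 0.33.

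Lars2, which encodes the leucyl-tRNA synthetase of mitochondria, was the only gene called in depth. Its scaled depth was 115 in WT and 2.18 and 2.82 in clones 1 and 2, with a log2 difference of -5.72 and -5.35 and an adjusted p of 0.0192 in the edgeR test (0.0303 with limma and 1.02e-15 with DESeq2). WT was far above both clones, which did not overlap with it. Its covered positions were 66 adenosines within 384 bases of the 3′ UTR (mm10, chr9:123461803-123462186), and no other part of the transcript was covered. WT was 52.9-fold and 40.9-fold above the clones. Calls on the 18S copy per mRNA call were 31.7-fold and 33.0-fold higher in WT than in the clones, a log2 difference of -4.98 and -5.05. The part of rRNA reads in the Lars2 result was not tested. The transcripts Gm26917 and Gm42418 are annotated beside and over the 18S copy on chromosome 17, whose positions were left out. Over their remaining positions the log2 differences were -0.05 and 0.02, and 0.16 and -0.08. Without the 18S positions, these transcripts could not show the 18S difference.

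Of the other genes with lower depth, 9 were named by their smaller difference, and none of them was called, with an adjusted p of 0.511 in the edgeR test for each. Mt1, a metallothionein that binds zinc and copper, had a median of 386 reads in WT and 137 and 105 in clones 1 and 2, and log2 differences of -1.37 and -1.89. Mt2, its neighbour on chromosome 8, had 145, 78 and 42 reads. Zfp42, which encodes REX1, a marker of naive pluripotency, had 138, 51 and 56 reads and a log2 difference of -1.31 and -1.32. Its scaled depth was 8.36 in WT and 3.36 ± 0.01 (SD, n = 2 clones). Both metallothioneins and Zfp42 lie on chromosome 8, and after subtraction of the chromosome median Zfp42 was still at -0.87 and -0.97.

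The remaining genes with the largest lower depth came from several cell functions. Ndufb7, a subunit of respiratory complex I, had 74.5, 30 and 26 reads, and Immt, a protein of the mitochondrial cristae junction, had 80, 26 and 38.5. Trh, the precursor of thyrotropin-releasing hormone, had 221.5 reads in WT and 67 and 113 in clones 1 and 2. Lsm8, which binds U6 RNA, had 62.5, 25 and 30 reads. Mkrn1, a ubiquitin ligase, had 110, 49 and 53, and Nudcd2 had 84, 38 and 42. Gab1, a docking protein of receptor tyrosine kinases, had 54, 25 and 27. In each of these genes both clones were below WT, with a log2 difference of -0.99 or below. Ndufb7 and Gab1 lie on chromosome 8, Immt, Trh, Lsm8 and Mkrn1 on chromosome 6 and Nudcd2 on chromosome 11. Several clone values were at or near 25, the lowest depth in the data, so genes with a larger difference could have dropped out. When the median of its chromosome was subtracted from each gene, 17 of the 55 genes were still at least 1.5-fold lower in both clones, among them Mt1, Zfp42, Ndufb7, Lsm8, Immt, Mkrn1 and Trh.

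The 9 genes at least 1.5-fold lower that lay on other chromosomes were Lars2, the pseudogene Gm13034, Alg13, Cenpa, Odc1, Psmd4, Tomm40, Tuba4a and Usp28, named after their values were seen. Cenpa, the histone variant of centromeres, had 66 reads in WT and 35 and 32 in clones 1 and 2. Odc1, the rate-limiting enzyme of polyamine synthesis, had 89, 51 and 51, and Tomm40, the channel of the mitochondrial outer membrane translocase, had 59, 30 and 34. Their log2 differences lay between -0.68 and -1.06, and none was called in the edgeR test.

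**Figure D3:**
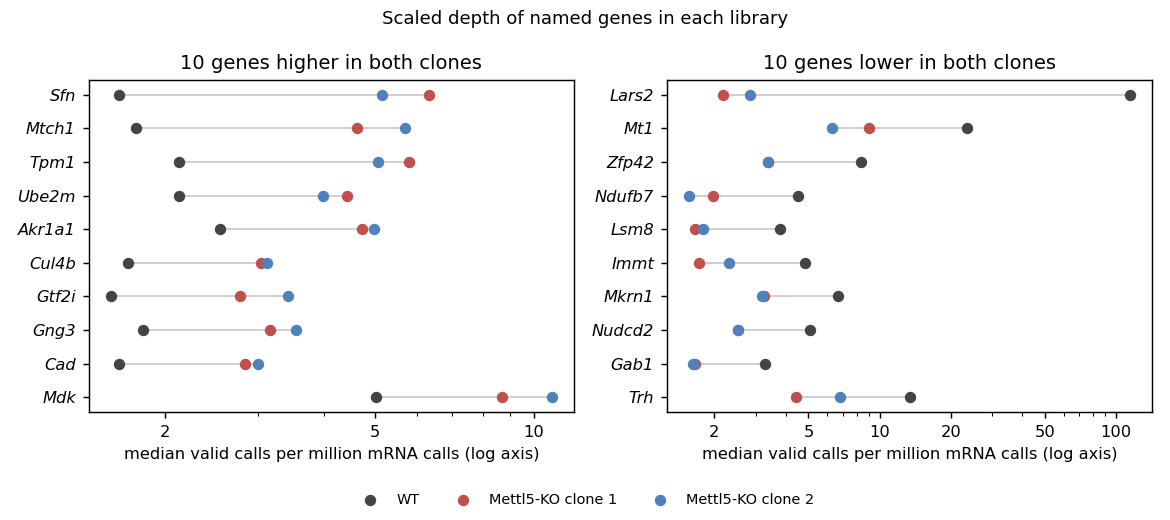
Scaled depth (median valid calls per 1000000 mRNA calls, log axis) of the 10 genes named in each direction, with WT in grey, clone 1 in red and clone 2 in blue, each point 1 library. In each of the 20 genes both clones lie on the same side of WT, and Lars2 has the widest gap, from 115 in WT to 2.18 and 2.82.

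Genes higher in both clones were led by Sfn, Mtch1 and Tpm1, the only genes at least 2-fold higher in both. None of the 10 named genes was called, with an adjusted p between 0.511 and 0.538 in the edgeR test. All of them but Mdk and Akr1a1 had 25 to 35 WT reads, near the lowest depth in the data. In that group of 269 genes the median difference was 0.17 and 0.21. Sfn, which encodes 14-3-3 sigma, a phosphoprotein-binding adaptor and known target of p53, had 27 reads in WT and 96 and 86 in clones 1 and 2, and log2 differences of 1.95 and 1.66. Over its covered 1200 bases (mm10, chr4:133600611-133601810) the differences were alike, at 1.98 and 1.71 in the 5′ part and 1.98 and 1.66 in the 3′ part. Of 20 other p53 target genes listed 3 were measured, and 0 of them were 1.5-fold higher in both clones. Ccng1 had log2 differences of -0.10 and 0.64, Bax of -0.12 and -1.53 and Aen of 0.03 and 0.48. Mtch1, a protein of the mitochondrial outer membrane, had 29, 70 and 95 reads. Tpm1, an actin-binding tropomyosin, had 35, 88 and 84.5.

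Other genes with higher depth act in protein turnover, signalling and metabolism. Ube2m, which conjugates NEDD8 to cullins, had 35 reads in WT and 67 and 66.5 in clones 1 and 2, and Cul4b, a cullin, had 28, 46 and 52. In the 5′ part of Cul4b the log2 differences were 0.33 and 0.37, against 0.83 and 0.91 in the 3′ part. Cad, which carries out the first steps of pyrimidine synthesis, had 27, 43 and 50. Gtf2i, a transcription factor, had 26, 42 and 57, and Gng3, a G protein subunit, had 30, 48 and 59. Mdk, a secreted heparin-binding growth factor, had 83, 132 and 181. Over all covered positions of these genes both clones were above WT, by a log2 difference of at least 0.79. Akr1a1, an aldehyde reductase, had 42, 71.5 and 83 reads, but its 36 covered positions all lay in exons annotated as 5′ UTR, so it may not stand for the whole mRNA. Apoe, named after its values were seen, had 126, 197 and 217 reads. After subtraction of the chromosome median, 20 of the 27 genes were still at least 1.5-fold higher in both clones.

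**Figure D4:**
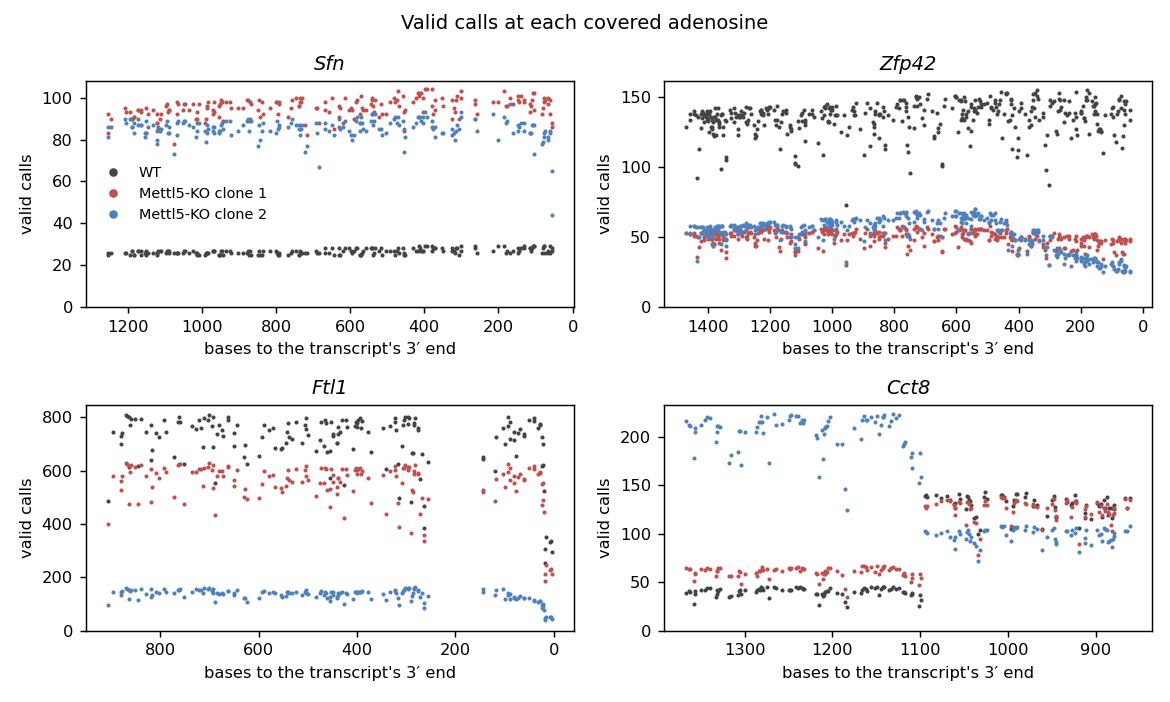
Valid calls, not scaled to library size, at each covered adenosine of 4 transcripts, against the distance in bases to the 3′ end of the transcript, with WT in grey, clone 1 in red and clone 2 in blue. Sfn lies above WT in both clones over its whole covered length and Zfp42 below it, Ftl1 is low in clone 2 only, and Cct8 changes its depth at 1 point in all 3 libraries.

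The clones also differed from each other. In 31 genes the depth was at least 2-fold lower in clone 2 than in clone 1, and in 4 genes it was so the other way round. These 31 genes had a median log2 difference from WT of -0.12 in clone 1 and -1.53 in clone 2. Their median exon length was 1872 bases, against 3312 for all genes tested, and their median scaled depth in WT was 7.27, against 2.91. The part of transcript length in this difference was not tested. Ftl1, the ferritin light chain, had a scaled depth of 45.0 in WT and 38.2 and 8.48 in clones 1 and 2. Psma6, a proteasome subunit, had 5.09, 5.97 and 1.74, and Slc25a5, an ADP/ATP carrier, had a median of 182 reads in WT and 180 and 59 in the clones. Polr2f, a subunit of RNA polymerases, had a scaled depth of 5.03, 5.34 and 1.62. In these 4 genes clone 1 was close to WT and clone 2 far below. In Slc25a5 the gap of clone 2 was in the 3′ part (54 reads against 186 in WT) rather than the 5′ part (139 against 180).

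Cct8, a subunit of the cytosolic chaperonin named after its values were seen, was the opposite case. In its 5′ part it had 42 reads in WT and 62.5 and 211.5 in clones 1 and 2, and in its 3′ part 131, 127 and 102. So a single depth per gene joins stretches that differ from WT in opposite ways in clone 2. Skp1a, Eif4a1 and the pseudogene Gm6293 were the other genes at least 2-fold lower in clone 1 than in clone 2.

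Gene lists were then described by their counts, with no test of the list. Of the 990 genes, 34.6% were higher and 41.3% lower in both clones, and in every list below 0 members were called in the edgeR test. Of 20 core pluripotency factors 13 were measured, with 5 higher and 6 lower in both clones and a median log2 difference of -0.12 and -0.02. Pou5f1, which encodes OCT4, had 235 reads in WT and 287.5 and 267.5 in clones 1 and 2. Nanog had 38, 32 and 36, and Sox2 had 56, 35 and 56, so the clones lay close to WT or differed from each other in these factors. Of 20 naive state genes only Zfp42 and Klf2 were measured, and both were at least 1.5-fold lower. Klf2, a Krüppel-like factor of the naive state, had 73, 30 and 41 reads, and both genes lie on chromosome 8. After subtraction of the chromosome median, the median of these genes was -0.80 and -0.73, and Klf2 fell short of 1.5-fold in clone 2. Of the formative and primed state genes, Dnmt3b, a de novo DNA methyltransferase, had 106, 144 and 163 reads, Pim2, a kinase, had 61, 72 and 88, and Otx2 had log2 differences of -0.23 and 0.19.

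Of 91 cytosolic ribosomal protein genes only 12 were measured as genes of their own, with 7 higher and 1 lower in both clones and a median log2 difference of 0.31 and 0.38. Their reads can be shared with pseudogenes. Rpl8 had a scaled depth of 59.1 in WT and 69.2 and 81.1 in clones 1 and 2. Rpl23 on chromosome 11 was the 1 member lower in both, at -0.65 and -0.68. Of 22 translation factors measured, 5 were higher and 7 lower in both clones. Eef2, the elongation factor of translocation, had a scaled depth of 27.6, 41.2 and 46.9, and Eef1a1, which brings aminoacyl-tRNA to the ribosome, had 184, 228 and 245. Of 22 ribosome biogenesis genes measured, 8 were higher and 7 lower. Tsr1, a factor of 40S subunit maturation on chromosome 11, had 55 reads in WT and 26 and 27 in clones 1 and 2, and Nhp2, a box H/ACA snoRNP protein, had 227, 123.5 and 70. Ncl, nucleolin, had 430, 371 and 439.

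Proteasome subunits had the lowest list median with more than 5 members. Of 16 measured, 4 were higher and 9 lower in both clones, with a median of -0.30 and -0.35. Chromosomes 6, 8 and 11 held 5 of the 16, and after subtraction of the chromosome medians the list median was -0.05 and -0.03. The 14 aminoacyl-tRNA synthetase genes had 7 members higher and 3 lower, with a median of 0.18 and 0.09. The members lower in both were Kars on chromosome 8, Rars on chromosome 11 and Gars on chromosome 6. Of 12 integrated stress response genes, 4 were higher and 3 lower, and those lower, Asns, Gars and Mthfd2, all lie on chromosome 6. Of 27 nuclear respiratory chain genes 8 were higher and 11 lower, and of 21 cell cycle genes 7 were higher and 9 lower. Of the m6A writers, readers and erasers only 3 readers were measured. Hnrnpa2b1 was higher in both clones at 0.36 and 0.45 although it lies on chromosome 6, and Igf2bp1 and Hnrnpc were lower.

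Among the smaller lists, heat shock and chaperone genes had 5 of 17 members higher and 10 lower in both clones. Hsp90ab1, the constitutive cytosolic HSP90, had 855 reads in WT and 921 and 1132 in the clones, and Hsp90aa1, its inducible paralog, had 632, 459 and 461. Of 17 mitochondrial ribosomal protein genes 4 were higher and 10 lower. Of 8 glycolytic enzymes 4 were higher and 1 lower, of 7 long noncoding RNAs 4 and 1, and of 6 imprinted genes 2 and 2. All but 1 of 5 histone genes were lower, and 4 of the 5 lie on chromosomes 6, 8 and 11. Of 4 germ layer genes 3 were higher and 1 lower. Lefty1, an inhibitor of Nodal signalling, had 36, 51 and 78 reads, and Krt18, a keratin of simple epithelia that is also in the list of primitive endoderm and trophoblast markers, had 30, 47 and 40. Fn1, fibronectin, the only member measured of the fibroblast and feeder list, had 47, 44 and 36. Sparc, the other primitive endoderm and trophoblast marker measured, had 117, 70 and 70 reads and lies on chromosome 11. Of 3 cholesterol synthesis enzymes 1 was higher and 2 lower.

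Pooled over all positions, the m6A level was nearly the same in WT and both clones. Over all positions of nuclear protein-coding exons it was 1.613% in WT (exact binomial interval from 1.607% to 1.619%), 1.602% in clone 1 (1.596% to 1.608%) and 1.602% in clone 2 (1.596% to 1.608%). At the 15389 positions in a DRACH motif it was 5.198% in WT (5.161% to 5.236%), 5.440% in clone 1 and 5.479% in clone 2 (5.441% to 5.517%). Outside DRACH it was 1.291% in WT (1.285% to 1.296%), 1.259% (1.254% to 1.265%) and 1.254% (1.248% to 1.259%). So both clones were above WT at DRACH positions and below it elsewhere, and these intervals did not overlap with that of WT. With equal weight of positions, the level over all positions was higher in the clones than in WT, at 1.777% in WT and 1.789% and 1.796% in the clones. The intervals cover counting error only, and with 1 WT library no spread between WT libraries is known. At the DRACH positions covered in all 5 libraries, WT was at 5.11%, the clones at 5.28% and 5.29%, DMSO at 5.94% and STM2457 at 1.47%. Over all positions covered in the 5 libraries, WT was at 1.61%, the clones at 1.59% and 1.59%, DMSO at 1.31% and STM2457 at 0.832%. Of the WT m6A calls on nuclear protein-coding exons, 195477 of 266203 lay outside DRACH. Gene levels below pool both kinds of position unless DRACH is named. The DMSO and WT cultures differ in line, genotype and batch.

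Per gene, the m6A level was higher in both clones for 320 genes (34.9%) and lower for 318 (34.6%), with a median log2 difference of -0.01 in clone 1 and 0.01 in clone 2. At least 25% above the WT level in both clones were 37 genes (4.03%), and 24 (2.61%) were lower by at least the same fold. The edgeR test on m6A and other calls called 1 gene higher (0.109%), Lars2, and 0 lower (0.0%), and before adjustment 32 genes in each direction (3.49%) had a p below 0.05. Fisher's exact test in each clone called 0 genes in both. Just inside that fold were the pseudogene Tyms-ps and Psmd3, with a smaller log2 difference of 0.323 and -0.324, and just outside were Terf1 and Pycard, at 0.322 and -0.313. On chromosomes 6, 8 and 11 the median difference in m6A level of 237 genes was -0.00 in both clones, so the depth pattern of these chromosomes was not seen in m6A. Of 26 genes at least 1.5-fold higher in depth with an m6A value, 9 had a higher and 9 a lower m6A level in both clones. Of 49 genes at least 1.5-fold lower in depth, 20 had a higher and 18 a lower one.

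With DRACH positions only, 683 genes had enough m6A calls. Of these, 336 (49.2%) were higher and 142 (20.8%) lower in both clones, and 77 (11.3%) and 24 (3.51%) were so by at least the same fold as above. The median gene level was 6.32% in WT and 6.97% and 7.10% in clones 1 and 2. The edgeR test called 1 gene in each direction (0.146% each), Asns higher and the pseudogene Rps4l lower. Asns, the asparagine synthetase and a target of the transcription factor ATF4, had a DRACH level of 7.32% in WT and 11.93% and 17.97% in clones 1 and 2, with an adjusted p of 0.0396. Over all its positions its level was 1.27%, 1.88% and 2.44%, with an adjusted p of 0.0744, so it was not called there. Rps4l had a DRACH level of 17.6%, 15.8% and 7.18%, so clone 2 carried its call.

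The genes with the largest m6A difference in both clones mostly had few m6A calls. To show where their calls lie, the position with the largest change in each is given with 21 bases of the GENCODE M21 transcript, and capitals mark the 5 bases around the adenosine, which is the middle one. The positions of Lars2 (chr9:123462113-123462133, plus strand, 3′ UTR), Bst2 (chr8:71534465-71534485, minus strand, 3′ UTR), Mrpl38 (chr11:116132015-116132035, minus strand, coding exon 9), Prkar1a (chr11:109667640-109667660, plus strand, 3′ UTR), 2010204K13Rik (chrX:7412474-7412494, minus strand, noncoding exon 4) and Hdac2 (chr10:37001655-37001675, plus strand, 3′ UTR) come from genes with higher levels. Those of Tbl3 (chr17:24702358-24702378, minus strand, coding exon 15), Rbpms (chr8:33929757-33929777, minus strand, 5′ UTR), Mapk3 (chr7:126765275-126765295, plus strand, 3′ UTR), Mapk1ip1l (chr14:47322546-47322566, plus strand, 3′ UTR), Fh1 (chr1:175607933-175607953, minus strand, coding exon 7) and Sub1 (chr15:11984044-11984064, minus strand, 3′ UTR) come from genes with lower levels.
Lars2: gagacaggTTAGTtttaccct
Bst2: ggcaggtcACAGTtgtttgaa
Mrpl38: cgatacagGGACAgtcatgag
Prkar1a: actcacgcAGACTgctttctc
2010204K13Rik: agttccgcGGACTcttcagag
Hdac2: tttggcatGGACTgtatttat
Tbl3: aaagacatCAACAgtttggct
Rbpms: ctccggtcCCAACcgcgcccg
Mapk3: tagaaagtGAACTttgctcaa
Mapk1ip1l: aagctcaaGGACAgcttggtc
Fh1: tagtggagCCATGaacactgc
Sub1: aagtgaagCTAATtgtcaagt

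The adenosine lay in a DRACH motif in 6 of the 12 windows, those of Mrpl38, Prkar1a, 2010204K13Rik, Hdac2, Mapk3 and Mapk1ip1l, or 4 of the 6 with higher and 2 of the 6 with lower levels. The m6A level of Lars2 rose from 1.35% in WT to 2.05% in clone 1 and 2.68% in clone 2, with an adjusted p of 2.8e-05 in the edgeR test. At its position above, 171 of 1902 reads were m6A in WT, 6 of 31 in clone 1 and 16 of 51 in clone 2, or 8.99%, 19.4% and 31.4%. Fisher's exact test, adjusted over 1841 sites of 25% or more, gave p = 0.726 for clone 1 and 0.00576 for clone 2. The reads on this stretch differed as much in number as given above, and their part in the m6A difference was not tested. With failed calls in the denominator, or with sites of 25% or more alone, Lars2 was not called. The other genes were not called, with an adjusted p of 0.283 or higher in the edgeR test.

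Bst2, the membrane protein tetherin, had an m6A level of 0.496% in WT from 5 m6A calls, 2.06% in clone 1 and 1.72% in clone 2. Its position above had 0 of 38, 5 of 28 and 3 of 27 reads with m6A. Mrpl38, a mitochondrial ribosomal protein, had 1.06%, 2.15% and 2.06%, and Prkar1a, a regulatory subunit of protein kinase A, had 0.698%, 1.52% and 1.18%. Hdac2, a histone deacetylase, had 1.52%, 2.58% and 2.39%, and its DRACH position above had 17 of 36, 18 of 28 and 25 of 35 reads with m6A, or 47.2%, 64.3% and 71.4%. The noncoding RNA 2010204K13Rik had 0.711%, 1.19% and 1.27%. In each of these genes both clones were above WT, though the exact intervals of WT and of at least 1 clone overlapped.

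**Figure D5:**
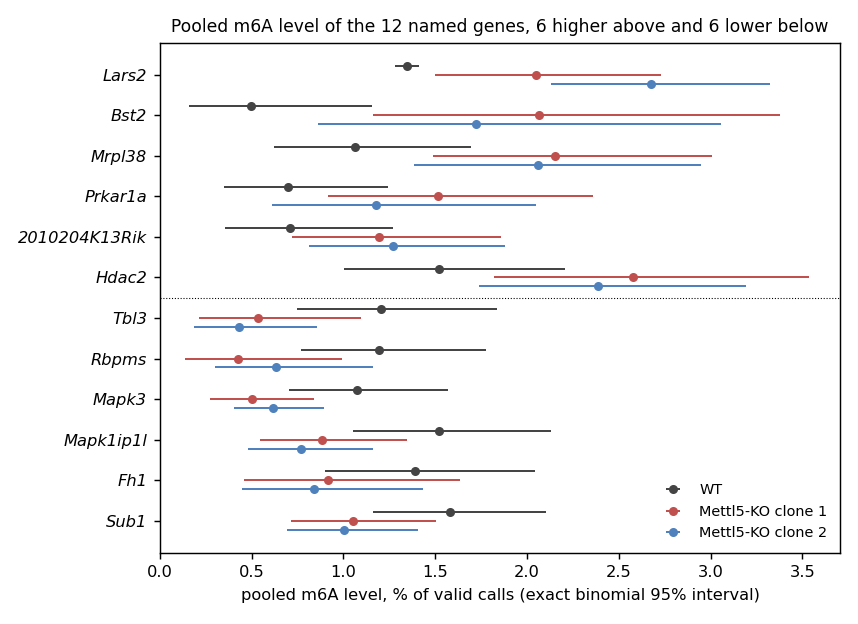
Pooled m6A level in percent of valid calls of the 12 genes named for m6A, 6 higher above the dotted line and 6 lower below it, with WT in grey, clone 1 in red and clone 2 in blue. Bars are exact binomial 95% intervals of each library, and Lars2, with 1.35% in WT and 2.05% and 2.68% in the clones, is the only one called.

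Among the genes with lower levels, Tbl3, a nucleolar protein of small subunit processing, had 1.21% in WT and 0.534% and 0.435% in clones 1 and 2. Rbpms, an RNA-binding protein, had 1.196%, 0.426% and 0.632%. Mapk3, the kinase ERK1, had 1.07%, 0.502% and 0.617%, and at its position above 5 of 27, 2 of 27 and 3 of 51 reads were m6A. Mapk1ip1l had 1.52%, 0.882% and 0.768%, with 4 of 27, 1 of 30 and 1 of 35 reads at its position. Fh1, fumarate hydratase, had 1.39%, 0.917% and 0.842%, and Sub1, a transcription coactivator, had 1.58%, 1.055% and 1.003%. The WT level of each rested on 21 to 46 m6A calls. All 6 had an adjusted p of 0.539 or higher.

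Smc4 and Mat2a, which the study's text names, and Sfpq, Nnat and Tdgf1 were called neither in depth nor in pooled m6A level. The study found a lower m6A load in the clones for Smc4 only, and said that its sites might show variability instead. That load is a mean over sites past the study's thresholds, a measure unlike the pooled level used here. Over all covered positions, the m6A level of Smc4 was 0.876% in WT and 0.790% and 0.896% in clones 1 and 2, that of Sfpq was 1.67%, 1.60% and 1.49%, that of Nnat was 1.962%, 1.79% and 2.04% and that of Tdgf1 was 2.16%, 2.09% and 2.07%. Their log2 differences in depth lay between -0.20 and 0.22. Smc4, Sfpq, Nnat and Tdgf1 each held at least 1 site that was lower in both clones. Of all 1841 sites of 25% or more, 428 were lower and 833 higher in both clones. In Sfpq, the DRACH site at chromosome 4 position 127022932 rose from 35.1% in WT to 41.3% and 54.2%. In Tdgf1, that at chromosome 9 position 110939884 rose from 45.0% to 52.5% and 62.0%. The lower sites given next for these genes all lay outside DRACH. The Sfpq site at chromosome 4 position 127030147 fell from 29.6% in WT to 8.33% and 5.88%. Its adjusted p in Fisher's exact test was 0.726 and 0.427. The Tdgf1 site at chromosome 9 position 110939848 fell from 38.7% in WT to 13.5% and 12.4%. It passed the threshold of Fisher's exact test in each clone (adjusted p = 0.0012 and 6.24e-05), which covers counting error only. The Smc4 site at chromosome 3 position 69031479 was at 36.7%, 3.45% and 6.25%, and the Nnat site at chromosome 2 position 157562087 was at 26.5%, 2.63% and 0%, with an adjusted p of 0.251 or higher in both clones. Mat2a, the S-adenosylmethionine synthetase whose 3′ UTR hairpins are methylated by METTL16, had a lower level in both clones, 1.92%, 1.65% and 1.62%, with an unadjusted p of 0.0152 and an adjusted p of 0.539. It lies on chromosome 6, and its depth was also lower, with 85 reads in WT and 40 and 52 in clones 1 and 2. Its 5 sites of 25% or more all lay in exon 9 in the 3′ UTR on the minus strand and shared the letters ACAGA, shown in capitals for the positions chr6:72432943-72432963, chr6:72433162-72433182, chr6:72433277-72433297 and chr6:72434240-72434260.
Mat2a 72432953: ggtgtggtACAGAgaagccag
Mat2a 72433172: gcgtaagtACAGAgaagccat
Mat2a 72433287: gtgtagctACAGAgaaaccag
Mat2a 72434250: cgtaggttACAGAgaagcctt

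The level of the Mat2a site at 72432953 was 80.4% of 92 reads in WT, 69.0% of 42 in clone 1 and 59.6% of 57 in clone 2. At 72433172 it was 57.5%, 38.9% and 41.5%, at 72433287 it was 90.8%, 72.7% and 79.2%, and at 72434250 it was 85.5%, 64.9% and 77.1%. The site at 72433061 had 77.8%, 72.5% and 65.9%. So all 5 sites were lower in both clones, where 428 of all 1841 sites were lower and 833 higher. At none of the 5 did Fisher's exact test pass after adjustment. The lowest adjusted p of that test was 0.462 for clone 1 and 0.344 for clone 2.

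Site levels are shown for the genes with large depth differences. In Sfn, the site at chromosome 4 position 133600965 was at 100% of 27 reads in WT, 96.1% of 102 in clone 1 and 97.8% of 89 in clone 2. In Zfp42, the site at chromosome 8 position 43295350 was at 59.2% of 147 reads, 62.3% of 53 and 61.0% of 41. The pooled m6A level of Sfn was 3.40%, 3.52% and 3.55%, and that of Zfp42 was 2.29%, 2.43% and 2.44%. Klf2 was at 3.85%, 4.09% and 4.33%. Among the lists, cytosolic ribosomal protein genes had 8 of 11 members lower and 0 higher in m6A level in both clones, with a median log2 difference of -0.13 and -0.16, against -0.01 and 0.01 for all genes. Over all genes, 34.6% were lower and 34.9% higher in both clones. Rpl28 had 1.27%, 0.926% and 0.935%. Nuclear respiratory chain genes had 12 of 25 members lower and 3 higher, with a median of -0.03 and -0.18. In both lists 0 members were called.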

How the data were processed

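RNA of WT mESCs and of Mettl5-KO clones 1 and 2 was ligated to poly-T adapters and sequenced directly by nanopore (1 library each, 1 batch). The authors called modifications and aligned reads to mm10 with dorado, and deposited modkit pileup counts for each position (valid, m6A, unmodified, other, failed). The lowest coverage was 25 valid calls, and 1994 positions lay on no GENCODE M21 exon of the call strand. By the study's methods, sites on no RefSeq exon were filtered out. Whether the deposited counts had passed that filter was not tested. Their m6A percent was recomputed from the deposited counts. Failed calls, 8.27% to 8.29% of calls, do not enter it. The files held 195787 positions, of which 420 on the 18S copy (chr17:39846353-39848201) were left out. On exons of 1 GENCODE M21 gene on the call strand lay 190042 positions, and 99.84% had an A in the transcript sequence, a check of build and strand.

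From these counts, median valid calls per gene (at least 10 positions) were scaled to the mRNA total, and m6A and valid calls were pooled per gene (at least 30 m6A calls over the 3 libraries). Genes were tested with edgeR 4.0.16 (R 4.3.3), quasi-likelihood, on rounded median depth and on m6A against other calls with library effects. The WT library has no replicate, so spread comes from the clones. Nothing shows how many cultures stand behind a library, so p-values of the edgeR fits measure only the spread between these libraries. Fisher's exact test sets the reads of a clone against those of WT. Its p-values cover counting error only and hold no spread between libraries. A call needed an adjusted p below 0.05 and both clones on the same side of WT. Both fits were run on simulated data in which the WT library varied as the clones do. That cannot show how they treat a WT library that stands apart. Intervals are exact binomial at 95%. Alternatives used limma 3.58.1, DESeq2 1.42.0 and Fisher's exact test (scipy 1.17.1), other scalings, depth measures, filters and thresholds, and each clone left out. Chosen after seeing the data were centring on the chromosome median, leaving out chromosomes 6, 8 and 11, and genes of 50 or more WT reads.

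Named genes were Smc4, Sfpq, Nnat, Tdgf1 and Mat2a, the 10 per direction with the largest smaller depth difference, the 6 per direction for m6A, called members and the 2 of highest WT scaled depth per list, and the 4 with the largest difference between clones. Called genes came first, and uncalled genes past the fold limit filled the number. Pseudogenes were not named by these rules for depth, m6A and clone differences. All other genes in the text, other list members included, were chosen after their values were seen. The members and lists were chosen with earlier results of these data known. STM2457 and DMSO libraries were used only for levels and depth side by side.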

Additional observations from a re-analysis of the deposited data

Results flagged for a closer look

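Calls on the 18S copy of chromosome 17, which no gene comparison used, were present in all 3 libraries. Per 1000 mRNA calls they numbered 166 in WT, 5.24 in Mettl5-KO clone 1 and 5.02 in clone 2. The only gene called in depth, Lars2, moved with them, and its part in that difference was not tested.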

How the results depend on the processing

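No paired analysis was possible because WT has 1 library. With failed calls counted, 2 genes were called higher in depth (Sfn and Mtch1) and 8 lower. At 2-fold, 3 genes were higher and 8 lower in both clones. Chosen after seeing the data, leaving out chromosomes 6, 8 and 11 left 9 of the 55 genes 1.5-fold lower, and centring on the chromosome median gave 21. With genes of 50 or more WT reads, the median depth difference, as the mean of the clones, was -0.479 on chromosome 6, -0.496 on chromosome 8 and -0.523 on chromosome 11, against -0.303, -0.394 and -0.434. With 1 clone left out, which leaves no spread within a group, 46 to 84 genes were 1.5-fold higher and 103 to 138 lower in depth, and in m6A level 73 to 87 were at least 25% higher and 64 to 83 lower by the same fold.

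For m6A, 0 genes were called higher with sites of 25% or more, with failed calls in the denominator and by Fisher's exact test, 2 with limma on the logit and 2 at an adjusted p below 0.1. With equal weight of positions 19 were called higher and 9 lower, and at DRACH positions 1 was called lower. Genes at least 25% higher numbered 77 at DRACH positions, 57 with no minimum of m6A calls and 10 at 1.5-fold, against 37. Genes lower by the same fold numbered 13 with sites of 25% or more, 14 with at least 50 positions and 6 at 1.5-fold, against 24. The pooled mRNA level was -0.0109 percentage points from WT in clone 1 and -0.0112 in clone 2. With equal weight of positions it turned to 0.0118 and 0.0182, and over all exonic positions clone 2 was at -0.0207. The causes were not tested. Depth limits the genes to those with 25 or more calls in all 3 libraries.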
